A study of Mus musculus with 2 samples.

Results

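The early B-cell factors (EBF) are transcription factors with a zinc-binding DNA-binding domain and a helix-loop-helix domain, through which they form dimers, and the mouse has 4 genes for them, *Ebf1*, *Ebf2*, *Ebf3* and *Ebf4*. EBF1 directs the B cell lineage and can open closed chromatin there, EBF2 acts in brown adipocytes, and the family also works in olfactory and other developing neurons. In the embryonic cochlea, *Ebf1* is known to limit the number of prosensory cells, from which hair cells and supporting cells arise. The chromatin around these 4 genes, of 21938 protein-coding genes in GENCODE vM21, was examined here in the organ of Corti (OC). The family was selected on measured values of the same libraries, since the EBF1 consensus was the most enriched at peak summits among a set of motifs examined before. Peaks were then assigned to the genes by position alone.

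The data are ATAC-seq peak lists, in which a peak marks DNA that the Tn5 transposase could reach. OCs were dissected from P2 WT mice and from littermates that lack *Bmi1*, a subunit of Polycomb repressive complex 1 (*Bmi1*-/-, named Bmi1 KO in the sample labels). The mutants came from the FVB.129P2-Bmi1 tm1Brn/MvlJ line after backcrossing to C57BL/6 J, the stria vascularis, modiolus and tectorial membrane were removed, and the OCs of several animals were pooled into 1 library per genotype. There are therefore no replicates, no difference was tested, and a change in the cells that make up the pool cannot be told apart from a change within them. The labels and the peak names disagree. In the file labelled WT all peaks are named with a knockout prefix, and in the file labelled *Bmi1*-/- all are named with a wild-type prefix, although the files as such are named as labelled. The sample labels were followed, so “WT-labelled” and “*Bmi1*-/--labelled” below say what the label is, and each direction would be the opposite if the peak lists had been exchanged. At *Bmi1* itself (chr2:18677018-18686629) the WT-labelled list held 1 peak, with a summit pileup of 17 reads, and the *Bmi1*-/--labelled list held 3, with 29, 26 and 19 reads. The sources used here do not give the deleted part of the allele, so the labels cannot be settled from this locus. The paper reports more abundant ATAC signal in its *Bmi1*-/- group, measured as normalized reads around TSSs. The list labelled so was also the longer one here, by a count of peaks that is not scaled for depth. The paper also reports that genes with raised mRNA in that group mostly had increased accessibility. The ATAC values in both reports come from the same libraries under the same labels. Whether the lists were exchanged was not tested.

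On chromosomes 1 to 19, X and Y, 77596 peaks were listed for the WT-labelled library and 100431 for the *Bmi1*-/--labelled one. The number of reads piled up at a summit (the pileup) and the local background behind it were solved from the deposited values. The background most often found was 6.32 reads (WT-labelled) and 8.04 reads (*Bmi1*-/--labelled), so the second library was 1.27 times as deep by this measure. The percentile of a peak is its rank by −log10 p within its own list, with 100 for the strongest. Intervals are exact 95% intervals and cover counting error only. Positions are those of GRCm38.

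*Ebf3* was the member with the most peaks for its length, and the ratio of the lists around the 4 genes together did not differ detectably from that over all peaks. In the gene bodies plus 50 kb on both sides, the WT-labelled list had 77 peak centres (60.8 to 96.2) and the *Bmi1*-/--labelled list 87 (69.7 to 107), and their ratio was 1.13 (0.822 to 1.56). Over all peaks the ratio of the lists was 1.29 (1.28 to 1.31), which lies within that interval. *Ebf1* had 20 WT-labelled and 25 *Bmi1*-/--labelled peaks, *Ebf2* had 20 and 21, *Ebf3* had 23 and 30, and *Ebf4* had 14 and 11. *Ebf4* was thus the only member with fewer peaks in the *Bmi1*-/--labelled list, but its ratio of 0.786 had an interval of 0.323 to 1.86, and the intervals of the other 3 genes also included 1. Per 100 kb, *Ebf3* was the densest member with 10.4 peaks labelled WT and 13.6 labelled *Bmi1*-/-. Its density stood at the 90.2 and 95.3 percentile of protein-coding genes, whose medians were 5.20 and 6.56. *Ebf1*, the longest member with a body of 391 kb, was the sparsest, with 4.08 and 5.09 peaks per 100 kb, at the 41.1 and 39.4 percentile. *Ebf2*, with 6.72 and 7.06, and *Ebf4*, with 7.99 and 6.27, lay between them. Most window peaks lay in introns, 42 of the 77 labelled WT and 47 of the 87 labelled *Bmi1*-/-. The intron share over the windows of all genes was not computed.

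The window peaks labelled WT held a q-value under 0.05 less often than all peaks of that list. By median pileup, the window peaks of both lists were close to all peaks. Their median pileup was 18 reads in the WT-labelled library and 22 in the *Bmi1*-/--labelled one, against 19 and 22 for all peaks, and the highest was 27 and 35. A q-value under 0.05 was held by 30 of the 77 window peaks labelled WT, or 39.0% (28.0% to 50.8%). The share over all peaks of that list was 52.4%, above this interval. In the *Bmi1*-/--labelled list such a q-value was held by 58 of 87, or 66.7% (55.7% to 76.4%), an interval that includes the 62.8% of all peaks. When only peaks whose −log10 q was 1.3 or more were counted, the ratio was 1.93 (1.22 to 3.11), beside 1.55 (1.53 to 1.57) for all peaks. The median percentile of the window peaks was 40.1 in the WT-labelled list and 52.4 in the *Bmi1*-/--labelled one. The 11 *Ebf4* peaks of the latter list had the highest median, at 82.5, and the 14 *Ebf4* peaks labelled WT the lowest, at 34.8.

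**Figure D1:**
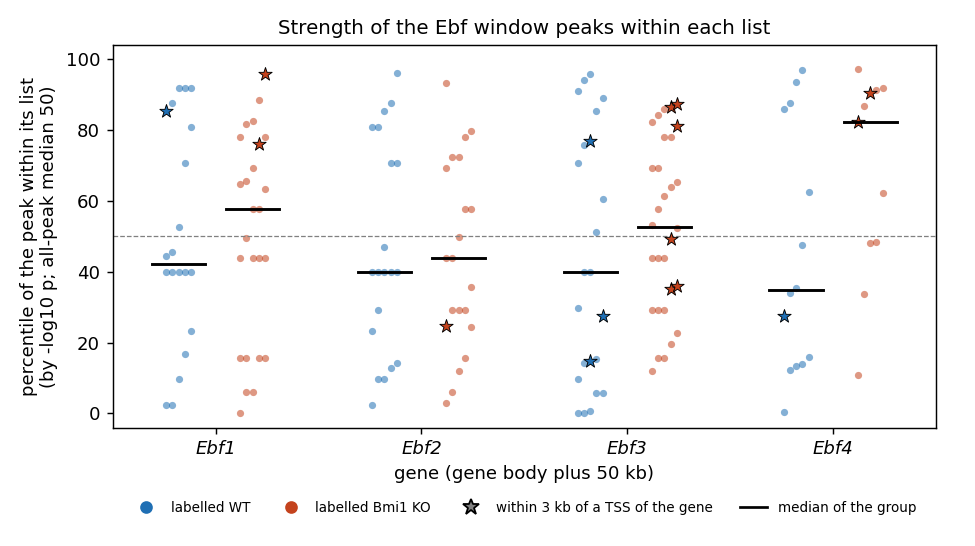
Percentile of each peak within its own list (vertical axis, by −log10 p) for the 4 *Ebf* genes with 50 kb on both sides. Points are peaks, stars are peaks within 3 kb of a TSS of the gene, and bars are medians, which in the WT-labelled list range from 34.8 to 42.3 and in the *Bmi1*-/--labelled one from 44.0 to 82.5.

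Few of these positions recurred. An overlap of at least 1 bp with the other list was found for 14 of the 77 peaks labelled WT, or 18.2% (10.3% to 28.6%), where 24.8% of all peaks in that list overlapped. Of the 87 peaks labelled *Bmi1*-/-, 14 overlapped, or 16.1% (9.09% to 25.5%), where the share of all peaks was 18.5%. Both intervals include the share of all peaks. In the gene bodies alone the overlap was lower than among all peaks in protein-coding gene bodies, with 4 of 45 peaks labelled WT, or 8.89% (2.48% to 21.2%), and 4 of 50 labelled *Bmi1*-/-, or 8% (2.22% to 19.2%), beside 27.0% and 20.9%. Most gene-body peaks of the family lie far from a TSS, where overlap is rarer. Of the gene-body peaks farther than 3 kb from a protein-coding TSS, 3 of 43 labelled WT, or 6.98% (1.46% to 19.1%), and 3 of 44 labelled *Bmi1*-/-, or 6.82% (1.43% to 18.7%), overlapped. These intervals include the 15.2% and 11.9% of all such peaks in protein-coding gene bodies, so a lower overlap of the family was not detectable at such distances. *Ebf4* had 5 overlapping peaks in each list, *Ebf1* had 4, *Ebf3* had 3 and *Ebf2* had 2. Within 3 kb of a TSS of the 4 genes, 3 of 5 peaks labelled WT and 3 of 11 labelled *Bmi1*-/- overlapped, where the shares of all peaks within 3 kb of a protein-coding TSS were 48.8% and 36.6%. Farther from these TSSs, 11 of 72 and 11 of 76 overlapped, including pairs within 3 kb of a TSS of *Nop56*, *Cpxm1* and *Tmem239*. Of all peaks farther than 3 kb from any protein-coding TSS, 16.1% and 12.2% overlapped, but these shares leave such pairs out.

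**Figure D2:**
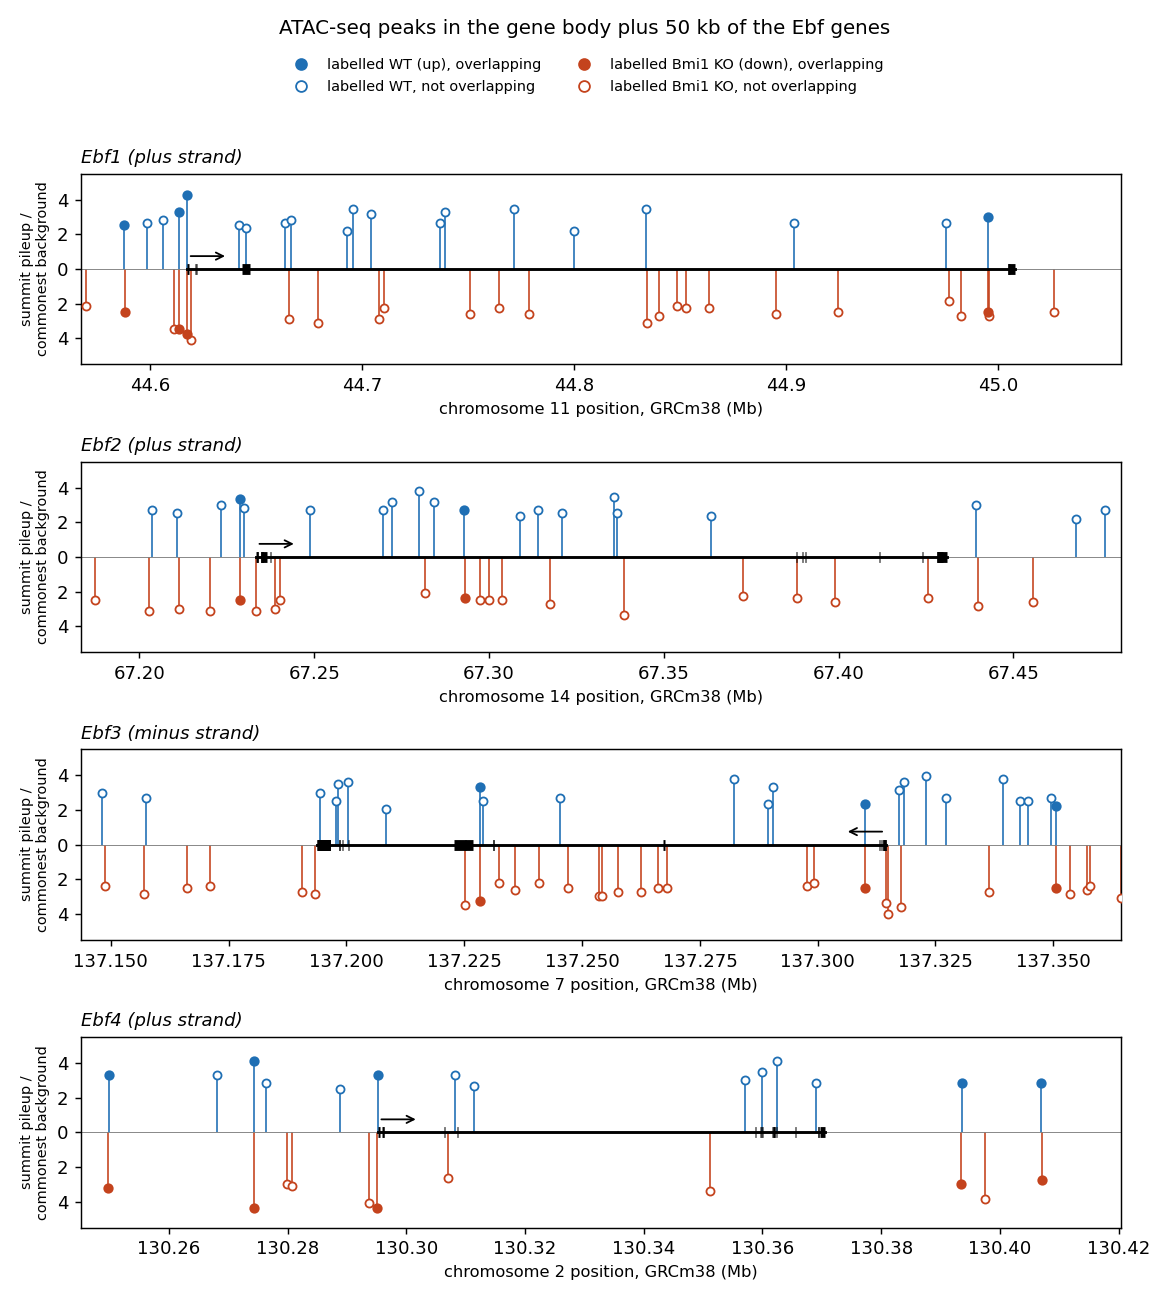
Peaks around the 4 *Ebf* genes, with the position on GRCm38 in Mb on the horizontal axis and the summit pileup divided by the commonest background of the library on the vertical axis. Peaks labelled WT point up, peaks labelled *Bmi1*-/- point down, filled circles overlap a peak of the other list, black lines and boxes are gene bodies and exons, and arrows show the direction of transcription. Of 77 and 87 peaks, 14 in each list overlap.

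Promoter peaks, with a centre within 3 kb of any annotated TSS, were present in both lists for *Ebf1*, *Ebf3* and *Ebf4*, and for *Ebf2* in the *Bmi1*-/--labelled list alone. Over protein-coding genes, 53.0% had such a peak in both, 15.2% only in the *Bmi1*-/--labelled one, 6.10% only in the WT-labelled one and 25.7% in neither, so this pattern of 3 genes and 1 gene is not a result about the family. The strongest promoter peak stood at a higher percentile in the *Bmi1*-/--labelled list for all 4 genes, and for 3 of them with a promoter of 1 kb, where *Ebf1* stood at the 85.5 percentile (WT-labelled) and the 76.0 percentile (*Bmi1*-/--labelled). The same order was found for 68.6% of 16298 genes that had such a peak in at least 1 list, and was thus common. The 3 kb limit mattered for *Ebf2* and *Ebf3*. An *Ebf3* peak labelled WT was just inside it, 2955 bp from the main TSS, whereas an *Ebf3* peak labelled *Bmi1*-/- at 3299 bp and an *Ebf2* peak labelled WT at 3489 bp were just outside. At the outer limit of 50 kb, an *Ebf3* peak labelled *Bmi1*-/- at 49.8 kb from the gene body was counted and one labelled WT at 50.3 kb was not.

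*Ebf1*, the founding member and regulator of the B lineage, lies on the plus strand (ENSMUSG00000057098.14, chr11:44617317-45008091). Both lists held a peak just upstream of its main TSS. In the WT-labelled library it spanned chr11:44616979-44617268, with a pileup of 27 reads (17.8 to 39.3) at the 85.5 percentile, and in the *Bmi1*-/--labelled one chr11:44616965-44617337, with 30 reads (20.2 to 42.8) at the 76.0 percentile. Scaled to the commonest background, the ratio of the *Bmi1*-/--labelled to the WT-labelled library was 0.873 (0.502 to 1.53). A second promoter peak, chr11:44619075-44619509 in intron 1, was found in the *Bmi1*-/--labelled list only. With 33 reads (22.7 to 46.3) at the 95.8 percentile it was the strongest *Ebf1* peak of that list, and its centre lay 103 bp from a start that RefSeq predicts. At the depth of the WT-labelled library, 33 reads correspond to 25.9 (17.9 to 36.4). A pileup of 15 would have been needed there for a −log10 p of 2, and the lower bound exceeds it. The counting error of the WT-labelled library was not taken into account. The peak was also picked as one listed in a single library, which favours a high pileup there, so these values do not show a difference between the libraries. A start of *Gm37695* lies within 3 kb of both promoter peaks. The local background at the shared peak was 1.54 and 1.51 times the commonest one in the libraries labelled WT and *Bmi1*-/-, so reads were also raised around the peak. A value of at least 1.4 was seen at 13.6% and 17.6% of all peaks within 3 kb of a TSS.

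Beyond the promoter, the strongest *Ebf1* peaks lay in the long intron 6. In the WT-labelled library, 3 intron 6 peaks tied at the 92.1 percentile with 22 reads each, at chr11:44695621-44695820, chr11:44771008-44771477 and chr11:44833720-44834030. In the *Bmi1*-/--labelled library, after the intron 1 peak, they were chr11:44679006-44679219 and chr11:44834272-44834590, also in intron 6, with 25 reads each at the 88.6 and 82.6 percentile. None of these 5 intron 6 peaks overlapped a peak of the other list, which is also so for most peaks of both lists. The 3 overlapping pairs away from the promoter lay upstream and in intron 14. The nearest to the gene start was 3941 bp (WT) and 3901 bp (*Bmi1*-/-) upstream, with 21 and 28 reads.

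The shared *Ebf1* peak was richer in CpG than the other. The sequences around the summits of the strongest promoter peak of each list are shown on the plus strand with CpG dinucleotides in capitals, since CpG-rich promoters are often accessible in many tissues. The stretch at chr11:44617025-44617174 held 7 CpG and that at chr11:44619188-44619337 held 1, in 150 bases each.
*Ebf1* shared upstream peak, labelled WT: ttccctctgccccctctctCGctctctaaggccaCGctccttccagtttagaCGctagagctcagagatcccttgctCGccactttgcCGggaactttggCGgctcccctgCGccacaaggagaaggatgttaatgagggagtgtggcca
*Ebf1* intron 1 peak, labelled Bmi1 KO: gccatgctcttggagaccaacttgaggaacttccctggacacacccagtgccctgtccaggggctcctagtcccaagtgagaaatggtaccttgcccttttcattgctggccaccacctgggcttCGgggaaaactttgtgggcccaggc
The observed over expected CpG ratio of the whole peaks was 0.582 at the shared peak labelled WT and 0.0681 at the intron 1 peak. The medians of all peaks within 3 kb of a TSS were 0.345 and 0.350 in the lists labelled WT and *Bmi1*-/-.

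*Ebf2*, a regulator of brown adipocytes and of migrating neurons, lies on the plus strand (ENSMUSG00000022053.13, chr14:67233292-67430918). Its only promoter peak was in the *Bmi1*-/--labelled list, at chr14:67233188-67233397 over the TSS. It was weak, with 25 reads (16.2 to 36.9) over a local background 1.49 times the commonest one, at the 24.6 percentile and with a −log10 q of 1.08, so with a −log10 q of 1.3 or more *Ebf2* had no promoter peak in either list. Without that limit, the percentile of the peak was 2.38 with equal list sizes and 12.4 when peaks were ranked by fold enrichment. At the depth of the WT-labelled library, 25 reads correspond to 19.7 (12.7 to 29.0), and a pileup of 17 would have been needed there for a −log10 p of 2. A difference between the libraries was therefore not detectable at this depth. The TSS of the lincRNA gene *Gm20675* lies within 3 kb of this peak. The sequence of this peak upstream of the TSS, chr14:67233188-67233282 on the plus strand, held 4 CpG, again in capitals.
*Ebf2* TSS peak, labelled Bmi1 KO: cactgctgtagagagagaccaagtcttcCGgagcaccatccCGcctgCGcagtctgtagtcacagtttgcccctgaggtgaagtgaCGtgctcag

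Away from the TSS, the strongest *Ebf2* peaks lay in the long intron 7. In the WT-labelled library it was chr14:67279793-67280141, with 24 reads at the 96.1 percentile. In the *Bmi1*-/--labelled one it was chr14:67338394-67338877, with 27 reads at the 93.4 percentile, within 3 kb of the TSS of the noncoding gene *1700120O09Rik*. The next in the WT-labelled list were chr14:67228336-67228791, 4729 bp upstream of the gene with 21 reads, and chr14:67335636-67335946 in intron 7 with 22 reads. In the *Bmi1*-/--labelled list they were chr14:67211162-67211571 upstream, with 24 reads, and chr14:67439604-67439989 downstream, with 23 reads. Most peaks of either list did not overlap the other list, and of these 6 only the one 4729 bp upstream did. Its partner labelled *Bmi1*-/- had 20 reads at the 2.98 percentile.

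*Ebf3*, a neuronal member of the family, lies on the minus strand (ENSMUSG00000010476.14, chr7:137193673-137314445) and had the most promoter peaks, 3 labelled WT and 6 labelled *Bmi1*-/-. At its main TSS, 2 peaks were found in the *Bmi1*-/--labelled list only. One, chr7:137314292-137314609, covered the TSS with 27 reads (17.8 to 39.3), and the other, chr7:137314726-137315092, was centred 464 bp upstream with 32 reads (21.9 to 45.2) at the 87.3 percentile. The nearest peak labelled WT, chr7:137317301-137317500, was 2955 bp upstream with 20 reads at the 27.6 percentile. At the depth of the WT-labelled library, the 32 reads correspond to 25.2 (17.2 to 35.5), and 17 would have been needed for a −log10 p of 2. For this peak the lower bound was thus just above the number needed, with the counting error of the WT-labelled library again not taken into account. It too was picked as listed in a single library, so a difference between the libraries is not shown. For the 27 reads over the TSS, the scaled pileup was 21.2 and its upper bound 30.9, and the lower bound did not reach the 18 reads needed.

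The only promoter peaks of *Ebf3* that overlapped between lists were at an internal start, 1629 bp (WT) and 1477 bp (*Bmi1*-/-) upstream of a retained-intron transcript that begins at 137226802. They spanned chr7:137228331-137228531 with 21 reads (13 to 32.1) in the WT-labelled library and chr7:137228120-137228438 with 26 reads (17.0 to 38.1) in the *Bmi1*-/--labelled one, both in intron 8. Their scaled ratio was 0.973 (0.527 to 1.82). With RefSeq curated transcripts, with the basic set of GENCODE and, as an alternative chosen after seeing the data, with protein-coding transcripts only, the strongest *Ebf3* promoter peak labelled WT was the one at 2955 bp, and its percentile was 27.6 in place of 77.0. With a promoter of 1 kb, *Ebf3* had no promoter peak labelled WT. Another promoter peak labelled WT, chr7:137228808-137229105, also lay in intron 8, with 16 reads and no overlap. At the start of another protein-coding transcript, Ebf3-205 at 137267538, the *Bmi1*-/--labelled list had 2 further peaks of 20 reads each and the WT-labelled list had none.

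A stronger peak labelled WT lay farther upstream of *Ebf3*. It spanned chr7:137322919-137323162, with 25 reads at the 89.2 percentile, 8595 bp from the main TSS of GENCODE but 235 bp from a start that RefSeq predicts for *Ebf3* at 137322805. The nearest peak labelled *Bmi1*-/- was centred 5061 bp from that start. The 3 strongest peaks labelled WT were chr7:137339139-137339361, 24805 bp upstream with 24 reads, chr7:137282177-137282376 in intron 6 with 24 reads, and chr7:137200321-137200549 in exon 13 with 23 reads. In the *Bmi1*-/--labelled list the peak 464 bp upstream of the TSS was the strongest, followed by chr7:137224974-137225345 in exon 10 with 28 reads and chr7:137364151-137364420, 49840 bp upstream with 25 reads. None of these 6 overlapped a peak of the other list, where only 24.8% (WT-labelled) and 18.5% (*Bmi1*-/--labelled) of all peaks did. The strongest promoter peaks are shown on the minus strand with CpG in capitals, from chr7:137228331-137228468 for the WT-labelled library, with 2 CpG, and from chr7:137314777-137314926 for the *Bmi1*-/--labelled one, with 5.
*Ebf3* intron 8 peak, labelled WT: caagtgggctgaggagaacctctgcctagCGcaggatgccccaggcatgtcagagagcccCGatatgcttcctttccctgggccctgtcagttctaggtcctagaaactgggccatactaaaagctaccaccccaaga
*Ebf3* upstream peak, labelled Bmi1 KO: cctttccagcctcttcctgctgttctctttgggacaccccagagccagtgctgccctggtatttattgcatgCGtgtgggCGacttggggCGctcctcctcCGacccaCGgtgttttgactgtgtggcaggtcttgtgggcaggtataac
The peak over the main TSS had 75.5% GC and an observed over expected CpG ratio of 1.06, and this ratio was the highest among the 77 and 87 window peaks. The RefSeq promoter of *Ebf3* (GRCm38.p6, chr7:137314396-137314695) held 46 CpG and stood at the 98.4 percentile of 32851 RefSeq promoters, where the median was 7.

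*Ebf4*, a further member of the family, lies on the plus strand (ENSMUSG00000053552.14, chr2:130295169-130370481). Both lists held a peak at its TSS, chr2:130295002-130295302 in the WT-labelled library and chr2:130294943-130295206 in the *Bmi1*-/--labelled one. The pileup was 21 reads (13 to 32.1) and 35 reads (24.4 to 48.7), and the percentile 27.4 and 90.4. The scaled ratio was 1.31 (0.742 to 2.37), so a difference was not detectable at this depth although the percentiles were far apart. Ranked by fold enrichment, the percentiles were 8.77 and 71.0. A second promoter peak, chr2:130293624-130293825, was in the *Bmi1*-/--labelled list only, 1445 bp upstream with 33 reads at the 82.5 percentile. The local background was 1.48 times the commonest one at the TSS peak labelled WT and 1.65 times at the *Bmi1*-/--labelled one. The parts of both peaks near their summits that precede the TSS are shown on the plus strand with CpG in capitals, chr2:130295110-130295168 with 8 CpG and chr2:130294943-130295090 with 16.
*Ebf4* TSS peak, labelled WT: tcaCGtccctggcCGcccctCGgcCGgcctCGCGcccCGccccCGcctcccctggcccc
*Ebf4* TSS peak, labelled Bmi1 KO: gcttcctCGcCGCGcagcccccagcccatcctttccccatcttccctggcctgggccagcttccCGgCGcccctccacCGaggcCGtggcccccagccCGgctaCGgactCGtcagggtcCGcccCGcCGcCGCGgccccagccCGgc

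The strongest peaks in the *Ebf4* window lay near the start of another gene. They overlapped at chr2:130274184-130274660 (WT, 26 reads, 97.0 percentile) and chr2:130273901-130274648 (*Bmi1*-/-, 35 reads, 97.2 percentile), within 3 kb of a TSS of *Nop56*, a core protein of small nucleolar ribonucleoproteins. The *Ebf4* window held the TSS of 13 other genes, 6 of them protein-coding (*Nop56*, *Idh3b*, *Cpxm1*, *Tmem239*, *1700020A23Rik* and *Gm28372*), and the windows of the other 3 members none that is protein-coding. A pair in the body of *Tmc2*, a hair cell gene whose TSS lies outside the window, was also shared, chr2:130249708-130249960 (WT, 21 reads) and chr2:130249678-130249957 (*Bmi1*-/-, 26 reads), 45335 and 45352 bp upstream at the 87.8 and 91.4 percentile. Inside the gene, chr2:130362065-130362614 in exon 15 had 26 reads in the WT-labelled library, and chr2:130351045-130351276 in intron 7 had 27 reads in the *Bmi1*-/--labelled one, with no overlap in the other list. The latter was centred 797 bp from a start that RefSeq predicts at 130351957.

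Of the 8853 protein-coding genes with an overlapping pair of promoter peaks, 7.68% had a scaled ratio of at least 1.5 and 1.52% had one of at most 1/1.5. None of the 3 *Ebf* genes with a pair passed either limit. The median ratio over all these genes was 1.08, a log2 value of 0.11. Relative to it, *Ebf1* and *Ebf3* lay below and *Ebf4* above, at the 17.7, 32.3 and 79.6 percentile. For the 8 promoter peaks found only in the *Bmi1*-/--labelled list, the pileup scaled to the other library would have passed a −log10 p of 2 there in each case. For 6 of them the lower bound of the scaled pileup would not have passed it. For the 2 promoter peaks found only in the WT-labelled list, both at *Ebf3*, the scaled pileup would have passed in the other library and its lower bound would not. A peak found in a single list is selected for a high pileup there. The same shares over all such promoter peaks were not computed, so these counts are not a result about the family.

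The EBF consensus was searched as TCCCNNGGGA, a palindrome that reads the same on both strands, wholly within 100 bp of each summit. It was found at 539 of the 77596 summits labelled WT, or 0.695%, and at 760 of the 100431 labelled *Bmi1*-/-, or 0.757%. Windows 1 kb to both sides held it in 0.525% and 0.50%. These shares chose the family and are given as a description. Among the peaks around the *Ebf* genes, 1 of 77 labelled WT held it, or 1.3% (0.0329% to 7.02%), and 1 of 87 labelled *Bmi1*-/-, or 1.15% (0.0291% to 6.24%). The flanking windows held it in 1 of 154 and 0 of 174. The 4 windows together were therefore too small to separate their share from that of all peaks. The DNA of the windows held 10 matches at *Ebf1*, 8 at *Ebf2*, 6 at *Ebf3* and 4 at *Ebf4*, or 2.36 per 100 kb (1.57 to 3.42) over all 4. The density of the genome, 1.65, lies within this interval and within that of each gene.

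The match in the WT-labelled list was in the *Ebf4* TSS peak, at chr2:130295237-130295246, 57 bp from the summit and downstream of the TSS in an exon. The match in the *Bmi1*-/--labelled list was downstream of *Ebf2*, at chr14:67455605-67455614, 95 bp from the summit of a peak at chr14:67455115-67455639 with 21 reads at the 57.8 percentile, and this peak did not overlap a peak labelled WT. Both are shown on the plus strand with the match in capitals, from chr2:130295227-130295256 and chr14:67455535-67455639.
*Ebf4* TSS peak, labelled WT: cggctcccgcTCCCCAGGGAgcggcggcgg
*Ebf2* downstream peak, labelled Bmi1 KO: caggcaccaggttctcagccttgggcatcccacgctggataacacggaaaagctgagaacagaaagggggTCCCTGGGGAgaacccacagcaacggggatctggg
Of the 32851 RefSeq promoters, 0.904% held TCCCNNGGGA and 13.7% held its inner letters CCCNNGGG, which every full match contains. Promoters were given for 3 of the 4 *Ebf* genes (4 promoters), and none held the full consensus. That of *Ebf3* held the inner letters.

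Known partners and targets of the family were examined at their promoters. Of 34 such genes, 19 had a peak there in both lists, 5 only in the *Bmi1*-/--labelled one, 5 only in the WT-labelled one and 5 in neither. A promoter peak was thus found for 70.6% of them in each list, where the shares of all protein-coding genes were 59.1% (WT-labelled) and 68.2% (*Bmi1*-/--labelled). Their strongest promoter peak had a median percentile of 50.8 (WT-labelled) and 74.1 (*Bmi1*-/--labelled), beside 33.4 and 65.5 over all protein-coding genes, with 0 for genes without a peak. It ranked higher in the *Bmi1*-/--labelled list for 17 of the 29 with a peak, where the share over all genes with a peak was 68.6%.

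All 9 cofactors, such as the zinc-finger partner *Zfp423* and the chromatin remodeller *Smarca4*, had a promoter peak in both lists, where 53.0% of all protein-coding genes did. *Tet2*, which oxidizes methylcytosine, stood at the 99.4 percentile (WT-labelled) and the 92.3 percentile (*Bmi1*-/--labelled), and *Foxo1* at 97.8 and 73.5. *Cnot3*, a deadenylase subunit, stood at 97.7 and 99.7, and *Smarca4* at 30.5 and 99.5. These were the 2 strongest cofactors of each list. Of the 11 B lineage genes, 2 had a promoter peak in both lists, beside the same 53.0%. *Pax5*, at the 64.6 and 93.8 percentile, and *Fcrla*, at 56.8 and 10.1, had one in both lists. *Blnk* (78.0 percentile) had one only in the *Bmi1*-/--labelled list. *Cd79a* (65.4), *Vpreb1* (64.9), *Blk* (31.5) and *Cd79b* (13.3) had one only in the WT-labelled list. *Igll1*, *Pou2af1* and *Vpreb2* had none.

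Of the 6 adipocyte genes, *Pparg*, *Cebpa*, *Prdm16* and *Ucp1* had a promoter peak in both lists. *Cidea* had one only in the *Bmi1*-/--labelled list (88.6 percentile) and *Ppargc1a* only in the WT-labelled list (9.68). The strongest were those of *Cebpa*, at the 78.9 percentile (WT-labelled) and the 95.9 percentile (*Bmi1*-/--labelled), and *Pparg*, at 81.0 and 94.7. Of the 4 olfactory neuron genes, *Gnal* (70.8 and 81.5 percentile) and *Adcy3* (67.5 and 64.0), both for odorant signalling, had one in both lists, and *Omp* and *Cnga2* had none. Of the 4 neurogenic regulators, *Isl1* (56.8 and 81.9 percentile) and *Neurog2* (61.8 and 63.4) had one in both lists. *Neurog1* and *Neurod1* had one only in the *Bmi1*-/--labelled list, at the 90.2 and 78.0 percentile. The consensus lay near the summit of a promoter peak at *Prdm16* in the WT-labelled list and at *Cidea* in the *Bmi1*-/--labelled one, and at none of the other 32 genes.

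The tissue was checked against marker genes of its cell types, beside the 59.1% (WT-labelled) and 68.2% (*Bmi1*-/--labelled) of all protein-coding genes that had a promoter peak. Of 12 hair cell genes, 9 had a promoter peak in each list, among them *Myo6* at the 98.1 (WT) and 99.1 (*Bmi1*-/-) percentile, and *Tmc1* had none. Of 12 supporting cell genes, 11 had one in the WT-labelled list and 9 in the *Bmi1*-/--labelled one, with *Lgr5* at the 99.9 percentile in both, and *Sox10* had none. Of 12 mesenchymal genes, 7 had one in each list, the strongest at *Twist1* (97.3 percentile, WT-labelled) and *Tbx18* (94.2 percentile, *Bmi1*-/--labelled), and *Col3a1*, *Dcn* and *Lum* had none. A peak was found in each list for 5 of 7 neuronal genes and for 4 of 5 endothelial genes, and for 3 (WT-labelled) and 4 (*Bmi1*-/--labelled) of 5 glial genes. Most of these shares are near those of all genes, so the counts do not tell which of these cell types the tissue holds. Of 9 genes of blood cells and macrophages, 2 had one in the WT-labelled list and 3 in the *Bmi1*-/--labelled one, none of them in both. The leukocyte gene *Ptprc*, the B cell gene *Ms4a1* and the red cell gene *Hbb-bs* had none. A promoter peak shows accessible DNA and not expression, and the part of these cell types in the *Ebf* peaks was not tested.

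Genes most like each member were sought over 4 percentiled values, the peak density and the strongest promoter peak in each list. The nearest genes were *Btbd9*, *Lcmt2* and *Map2k1* for *Ebf1*, *Gm17304*, *Rps6kl1* and *Spata31d1d* for *Ebf2*, *Ipo4*, *Gm49378* and *Ap2m1* for *Ebf3*, and *Terf2ip*, *Dram1* and *E330021D16Rik* for *Ebf4*. Their distances ran from 2.44 to 5.80 on a scale where each value spans 100. The distances between members ran from 45.3 (*Ebf2* and *Ebf4*) to 78.2 (*Ebf1* and *Ebf2*), and no member had another among its nearest genes. Distances between other pairs of genes were not computed, so this is not a result about the family.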

How the data were processed

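One ATAC-seq library per genotype was analysed, from the OC of pooled P2 mice. Per the sample records, the authors used FastQC, BWA for mapping to mm10, MACS2 for the peaks and HOMER for annotation, and versions are not given in the sources used here. The deposited fold enrichment is a ratio of pileup to local background at the summit, and the deposited −log10 p and −log10 q were written by MACS2 for each peak, with a lowest −log10 p of 2.00 (WT-labelled) and 2.01 (*Bmi1*-/--labelled). The other deposited columns used give positions and summit offsets.

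Pileup and background were solved for each peak from fold enrichment and −log10 p. A whole pileup was found within a tolerance of 0.01 in −log10 p for 100% of peaks, and the functions were tested on simulated data. Peaks on unplaced sequences (230 and 237) were left out. TSSs were those of GENCODE vM21, with RefSeq as an alternative. Exon and intron numbers are those of the longest protein-coding transcript that spans the peak. Peaks of both lists were matched by an overlap of at least 1 bp. Scaled ratios are pileup ratios divided by 1.27, the ratio of the commonest backgrounds. Intervals are exact, Poisson for pileups and counts, binomial (Clopper-Pearson) for shares and conditional binomial for ratios. No test was run, since there is 1 library per genotype. The alternatives tried were stricter −log10 q, equal list sizes, other transcript sets, window sizes, overlap rules, promoter widths, scalings and motif windows.

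The members and gene lists were chosen with earlier results of these data known. For each member and list, the peaks named are the strongest promoter peak, the 3 strongest in the window and each with the consensus. Genes of the partner and target lists are named where 1 list only or none has a peak or where they are among the 2 strongest, and some genes of the lists are not reported by name here. The other promoter peaks, the peaks beside RefSeq-predicted starts, the pair upstream of *Ebf1* and the cell type markers named were chosen after their values were seen. Python 3.11.15, numpy 2.4.6, pandas 2.3.3, scipy 1.17.1, pysam 0.24.0 and matplotlib 3.10.9 were used.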

Additional observations from a re-analysis of the deposited data

How the results depend on the processing

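The ratio of window peak numbers, 1.13, lay between 0.909 (equal list sizes) and 1.3 under 9 of the 10 alternatives that gave a value, and was 1.93 when −log10 q had to be 1.3 or more. With a −log10 q of 5 or more, 0 WT-labelled and 2 *Bmi1*-/--labelled window peaks were left, so the ratio and the WT-labelled overlap had no value. In the gene bodies alone the overlap was 8.89% (2.48% to 21.2%, WT-labelled) and 8% (2.22% to 19.2%, *Bmi1*-/--labelled), below the 27.0% and 20.9% of all peaks in protein-coding gene bodies. Farther than 3 kb from a TSS it was 6.98% and 6.82%, with intervals that include the 15.2% and 11.9% of all such peaks. In the windows the overlap was 7.79% and 6.90% when 50% of both peaks had to overlap, where all peaks gave 13.1% and 10.2%. In the *Bmi1*-/--labelled list it was also 8.62% with a −log10 q of 1.3 or more, where all peaks gave 16.3% and the cause was not tested, and 0% with 5 or more, where 2 peaks were left. The 3 members with a promoter peak in both lists became 1 with a −log10 q of 2 or more and 0 with 5 or more, where fewer peaks are left by construction. The member with a promoter peak only in the *Bmi1*-/--labelled list was *Ebf2*, which had none in either list with a −log10 q of 1.3 or more, where it was *Ebf4*. With 2 or more there were 2, *Ebf3* and *Ebf4*, with 5 or more 1, *Ebf1*, and with a 1 kb promoter 2, *Ebf2* and *Ebf3*. None had one only in the WT-labelled list under the 8 alternatives. By its strongest promoter peak, a member stood higher in the *Bmi1*-/--labelled list in 3 or 4 cases, and in 1 with a −log10 q of 5 or more. The median scaled ratio, 0.973, lay between 0.903 and 1.09 under 4 alternatives. The 2 window peaks with the consensus became 0 within 50 bp of the summit and 18 with the inner 8 letters, by construction. With a −log10 q of 2 or more, partner and target genes with a promoter peak in both lists numbered 7 in place of 19, those only in the *Bmi1*-/--labelled list 12 in place of 5, and those only in the WT-labelled list 0 in place of 5, of 34 genes, where the shares over all protein-coding genes were 24.0%, 23.3% and 5.09%. Exchanging the labels would invert each ratio. No paired analysis was possible because each genotype has 1 library. Depth limits single peaks, since even the highest window pileup, 35 reads, has an interval of 24.4 to 48.7.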
